A study of Rattus norvegicus with 18 samples.

Results

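Genes of blood coagulation, of its natural anticoagulants and of fibrinolysis were examined in rat liver by RNA-Seq. The members were the 34 genes of these pathways chosen by gene symbol, and all 34 had a row among the 32623 genes of the deposited data. They comprised 17 procoagulant, 11 anticoagulant and 6 fibrinolytic genes. After the filter on low counts 33 members could be tested. F13a1, the A chain of factor XIII, had between 1 and 20 counts per library and was not tested.

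Livers came from 6 control, 6 NASH and 6 NASH-CH male Wistar rats, with 1 library per rat. In the NASH protocol, 6 weeks of inhaled CCl4 with phenobarbital in the drinking water came before 4 weeks of a diet rich in fat and cholesterol (HFCD). The NASH-CH protocol (NASH with established cirrhosis) gave CCl4 and phenobarbital over 24 weeks, joined by HFCD in the last 16. Control rats ate standard chow and drank plain water for 12 weeks. The toxin, the barbiturate, the diet and the length of the protocol differ together between the groups, so their parts cannot be told apart, and both comparisons with control use the same 6 control rats.

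Clotting starts when tissue factor (F3) meets factor VII, or when the contact factors are activated on a surface, and both arms end in thrombin (F2), which turns fibrinogen into fibrin. Antithrombin, the protein C system and tissue factor pathway inhibitor restrain thrombin formation, and plasmin, made from plasminogen by its activators, dissolves fibrin. Hepatocytes make most of these plasma proteins, whereas factor VIII, thrombomodulin, the endothelial protein C receptor and the plasminogen activators come mainly from endothelial or other non-hepatocyte cells.

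Total counts were 19498534 to 27174015 per library in control rats, 20827770 to 29491947 in the NASH group and 44680344 to 60117822 in the NASH-CH group, so depth and the NASH-CH group cannot be told apart. The members took a median of 1.95% of all counts in control libraries, 2.30% in those of NASH rats and 2.48% in those of NASH-CH rats. These shares are of unscaled counts, whereas the levels below were scaled with TMM factors. The factors were 0.79 to 1.03 in control, 0.98 to 1.15 in NASH and 0.97 to 1.28 in NASH-CH libraries. All 7 hepatocyte markers were measured, with summed levels of 126500 to 182600 CPM (counts scaled to a common library size, with TMM factors) in control rats, 90270 to 148100 CPM in NASH rats and 83590 to 137600 CPM in NASH-CH rats. In NASH 1 of them was lower (Apoa1), and in NASH-CH 3 were lower (Alb, Apoa1 and Ttr). Of all genes tested, 1.54% and 8.60% were lower in the same order. Apob, Cps1, Tf and Hnf4a were not called, with log2 differences from control of 0.36, 0.15, 0.08 and -0.01 in NASH-CH. Alb weighed most in the sum, with a median of 100490 CPM in control rats, where the sum had 145300 CPM. In whole tissue, fewer cells of a type and less RNA per cell cannot be told apart. NASH-CH rat 5 stood apart from the other libraries, with the lowest hepatocyte sum (83590 CPM) and the lowest sinusoidal endothelial sum (141.6 CPM), and with the highest cholangiocyte sum (35.2 CPM, against 12.6 or less in each of the other 17 rats). Without this rat, F5, Kng1 and Procr kept their calls in NASH-CH against control, at log2 fold changes of 0.93, 1.63 and 0.96. Of the 33 members, 6 uncalled differences in that comparison then changed sign (F2, F8, Fgb, Fgg, Proc and Serpinc1, all within 0.07 of 0 both with and without the rat). A further 18 moved by over 1.5 times, among them Serpina5, which gained a call, Plat (0.69 to 0.36), Plau (0.26 to 0.07), Klkb1 (0.18 to 0.28), Serpinf2 (0.17 to 0.26), Plg (0.08 to 0.16), F12 (-0.10 to -0.01), Proz (-0.22 to -0.13), F10 (-0.21 to -0.13) and F9 (-0.13 to -0.04).

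Few coagulation and fibrinolysis genes passed the test, and those that did were higher in diseased liver. These were factor V in both models, and kininogen and the endothelial protein C receptor in NASH-CH. Which kininogen gene the Kng1 row holds is uncertain. In NASH, F5 alone was higher than in control, 1 of 33 members (3.03%), where 1.58% of all 12904 genes tested were higher. No member was lower, against 1.54% of all genes. In NASH-CH, 3 of 33 members (9.09%) were higher, F5, Kng1 and Procr, where 8.38% of all genes were higher. No member was lower, against 8.60% of all genes. Between NASH-CH and NASH no member passed in either direction, where 1.81% of all genes were higher and 2.39% lower in NASH-CH. These calls used limma's moderated test with a Benjamini-Hochberg adjusted p below 0.05 over all genes tested. At an unadjusted p below 0.05, 4 members passed in NASH and 4 in NASH-CH, all of them higher, and 2 passed between NASH-CH and NASH (F8 and F11), both lower. These are 12.1%, 12.1% and 6.06% of the members, where 21.5%, 31.7% and 17.5% of all genes tested had such a p. The edgeR test called 1, 3 and 0 members in the 3 comparisons, and DESeq2 called 2, 4 and 1. Scaling by library size alone, which moved the median of all genes tested up by 0.23 in NASH and 0.27 in NASH-CH, gave 7 and 12 members higher, where 6.70% and 25.3% of all genes were called in either direction.

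The median log2 fold change of the 33 members was 0.07 in NASH and 0.08 in NASH-CH, beside 0.01 and 0.01 over all genes tested. For 27 of 33 members in each model, the 95% interval of the difference from control lay within a 2-fold change in either direction (81.8%), as it did for 77.9% of all genes in NASH and for 76.1% in NASH-CH. By role, the median log2 fold changes in NASH and NASH-CH were 0.05 and -0.0025 for the 16 procoagulant genes tested. They were 0.02 and 0.03 for the 11 anticoagulant genes, and 0.17 and 0.24 for the 6 fibrinolytic genes. The fibrinolytic list also holds Serpinf2, which inhibits plasmin, and Cpb2, which protects fibrin from it. The anticoagulant list also holds Serpina5, an inhibitor of protein C. These medians therefore give no direction for clotting or for fibrin breakdown.

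**Figure D1:**
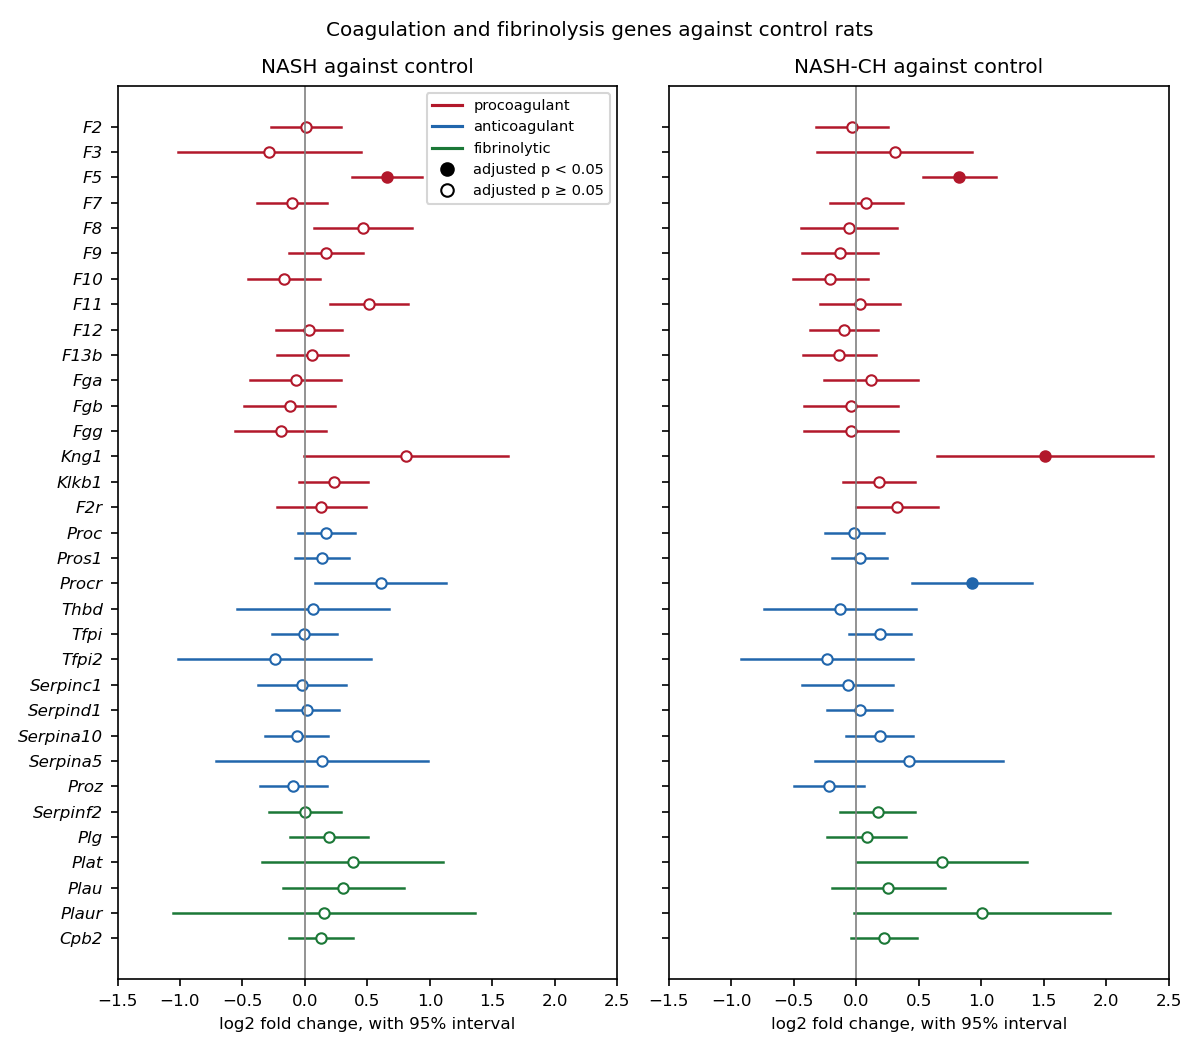
Log2 fold change of the 33 members tested (points) with the 95% interval (lines), for NASH (left) and NASH-CH (right) against control, 6 rats in each group. Filled points passed the adjusted p of 0.05: F5 in NASH, and F5, Kng1 and Procr in NASH-CH.

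F5 encodes factor V, the cofactor that speeds up the conversion of prothrombin by factor Xa. Its level (ENSRNOG00000057855) was lowest at 94.2, median 129.6 and highest at 162 CPM in control rats, 166, 200.3 and 224 CPM in NASH rats, and 150.1, 233 and 253 CPM in NASH-CH rats. All 6 NASH rats lay above every control rat, and so did 5 of 6 NASH-CH rats; the exception was rat 5, the library that stood apart. F5 was 1.58-fold higher in NASH (log2 fold change 0.66, SE 0.13, 95% interval 0.38 to 0.93, adjusted p = 0.0136 by limma). In NASH-CH it was 1.77-fold higher (0.82, SE 0.14, interval 0.53 to 1.12, adjusted p = 0.000598), and 0.93 on the log2 scale without rat 5. NASH-CH and NASH rats overlapped for this gene (0.17, interval -0.13 to 0.47, adjusted p = 0.596).

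F11 and F8 had their highest medians in NASH, and neither passed the threshold. F11, the zymogen of the contact-activated protease factor XIa, ranged from 105 to 170.1 CPM in control rats (median 133), from 157 to 226 CPM in NASH (median 192) and from 99.1 to 188 CPM in NASH-CH (median 135). Of the NASH rats 5 of 6 lay above every control rat, and 4 of 6 NASH-CH rats lay below every NASH rat. The log2 difference was 0.51 (SE 0.15, adjusted p = 0.0650 by limma) for NASH against control, and -0.48 (SE 0.16, adjusted p = 0.0968) for NASH-CH against NASH. The first of these passed with DESeq2 (adjusted p = 0.0280), with the 2 groups fitted alone (0.0380), with sample quality weights (0.0131), with library size only (0.00756), without control rat 6 (0.0289) and without NASH-CH rat 5 (0.0378). The second passed with DESeq2 (0.0488), with no filter on low counts (0.0468) and without NASH-CH rat 1 (0.0420). Each failed in every other alternative, the edgeR test and the replicate block among them.

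F8 encodes factor VIII, the cofactor of factor IXa, which is made mainly by sinusoidal endothelium. It ranged from 6.64 to 10.3 CPM in control rats (median 7.76), from 8.82 to 13.7 CPM in NASH (median 10.9) and from 6.12 to 13.9 CPM in NASH-CH (median 6.85). Of the NASH-CH rats 5 of 6 lay below every NASH rat, while rat 6 lay above them all. The log2 difference between NASH-CH and NASH was -0.52 (SE 0.17, adjusted p = 0.102 by limma), and -0.70 without NASH-CH rat 6 (adjusted p = 0.00136). With all rats and sample quality weights it was -0.56 (adjusted p = 0.0205). Against control the difference in NASH was 0.47 (adjusted p = 0.157, 0.0366 without NASH-CH rat 6 and 0.0425 with sample quality weights). In every other alternative F8 was not called. Stab1, a sinusoidal endothelial marker, was also lower in NASH-CH than in NASH (log2 fold change -0.69, adjusted p = 0.0318), 1 of the 6 markers of that list; their part in the values of F8 was not tested.

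**Figure D2:**
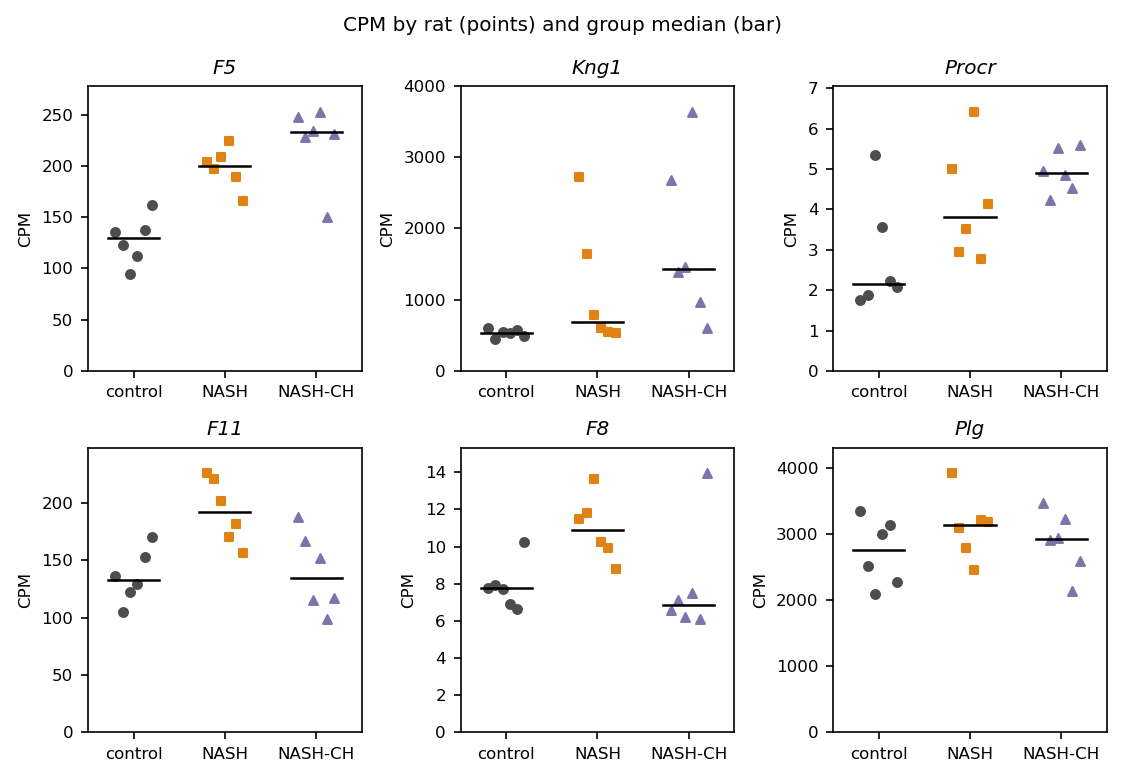
CPM of F5, Kng1, Procr, F11, F8 and Plg in each rat (points) and the group median (bar), on axes that start at 0. All NASH rats lay above all control rats for F5, all NASH-CH rats lay above all control rats for Kng1, and the groups overlapped for Plg.

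Kng1 encodes kininogen, which is the precursor of bradykinin and, in its high molecular weight form, the cofactor of contact activation. Counts per gene do not separate forms of a protein. Control rats were close together for this gene (ENSRNOG00000030387), at 447 to 596 CPM with a median of 536. NASH rats spread from 530.5 to 2716 CPM (median 690.4), with rats 1 and 2 at 2716 and 1637 CPM and the other 4 rats at 781 CPM or less. NASH-CH rats spread from 601 to 3636 CPM (median 1426), with rat 4 highest and rat 6 lowest, and all 6 lay above every control rat. Kng1 was 2.85-fold higher in NASH-CH than in control (log2 fold change 1.51, SE 0.41, 95% interval 0.65 to 2.37, adjusted p = 0.0178 by limma). In NASH the difference was 0.81 (SE 0.39, interval -0.01 to 1.62, adjusted p = 0.237), with 4 of 6 rats above every control rat. Between NASH-CH and NASH it was 0.70 (interval -0.18 to 1.59, adjusted p = 0.410).

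The identity of the kininogen signal is uncertain. The rat genome holds several closely related kininogen genes, and 3 RefSeq genes carry the name Kng1 as symbol or synonym (Kng1, Kng2 and Kng2l1), whereas the deposited data had 1 row whose symbol begins with Kng. Reads of near-identical copies could have been assigned to that row or lost from it. The row counts as a contact factor here by its symbol alone, so its rise is not established as one of the contact cofactor. In the 250 bases before the start site, RefSeq's Kng1 and Kng2 share an unbroken run of 87 bases, and Kng1 and Kng2l1 one of 34 bases. The Kng1 window is shown to mark which gene RefSeq calls by that name, and the F5 window because F5 was the member called in both models. Both are given 5′ to 3′ on the coding strand, in the GRCr8 build, which is not the build used for the counts (Rnor_6.0). Capitals mark the 7 letters CTGGGAA, a core known from interleukin-6 response elements of acute-phase genes such as fibrinogen. The F5 window holds no match on either strand, and the Kng1 window holds 1, from 82 to 76 bases before the start.
Kng1, GRCr8, minus strand, chr11:91340149-91340398: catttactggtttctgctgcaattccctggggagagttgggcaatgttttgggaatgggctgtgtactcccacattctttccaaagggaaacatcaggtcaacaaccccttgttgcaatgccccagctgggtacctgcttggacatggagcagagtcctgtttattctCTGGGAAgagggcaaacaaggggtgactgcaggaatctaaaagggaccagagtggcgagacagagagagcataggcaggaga
F5, GRCr8, plus strand, chr13:79046407-79046656: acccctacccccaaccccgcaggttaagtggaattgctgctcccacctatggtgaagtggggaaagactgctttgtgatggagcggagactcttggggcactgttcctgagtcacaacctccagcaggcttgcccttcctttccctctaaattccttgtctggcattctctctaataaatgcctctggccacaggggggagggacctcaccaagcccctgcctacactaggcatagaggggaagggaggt

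The other contact factors gave no call. Klkb1 (plasma prekallikrein) had medians of 193, 229 and 230.4 CPM in control, NASH and NASH-CH rats, with log2 differences from control of 0.23 and 0.18 (adjusted p = 0.329 and 0.385). F12, the zymogen that starts contact activation, had medians of 429, 464 and 441 CPM. Its differences of 0.03 and -0.10 had 95% intervals of -0.23 to 0.30 and -0.37 to 0.17.

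The 3 fibrinogen chains, the substrate of thrombin, were not called in any comparison, and they varied together from rat to rat. Fga (the alpha chain) ranged from 2786 to 4279 CPM in control rats (median 3723), from 2962 to 3768 CPM in NASH (median 3442) and from 2777 to 5710.5 CPM in NASH-CH (median 3799). Fgb (the beta chain) ranged from 3487 to 5682 CPM, from 3598 to 4655 CPM and from 3061 to 6297 CPM in the same order, and Fgg (the gamma chain) from 2561 to 4250 CPM, from 2679 to 3294 CPM and from 2366 to 4731 CPM. NASH rats were the closest together, and NASH-CH rats 1, 3 and 4 were high for every chain while rats 2, 5 and 6 were low. The log2 differences from control lay between -0.20 and -0.08 in NASH and between -0.04 and 0.12 in NASH-CH, and all 3 intervals in each model lay within a 1.5-fold change in either direction. So did the intervals of 49.2% of all genes tested in NASH and of 47.4% in NASH-CH.

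Around the group means, the standard deviation over the 18 rats was 0.32 for Fga, 0.31 for Fgb and 0.32 for Fgg on the log2 scale. For the ratios it was smaller, at 0.11 for Fga to Fgb, 0.07 for Fga to Fgg and 0.10 for Fgb to Fgg. Levels of 2 genes in 1 library share that library's scaling, which cancels in a ratio, so these values are a description. For comparison, F2 and Serpinc1 had standard deviations of 0.22 and 0.30, and their ratio one of 0.12.

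**Figure D3:**
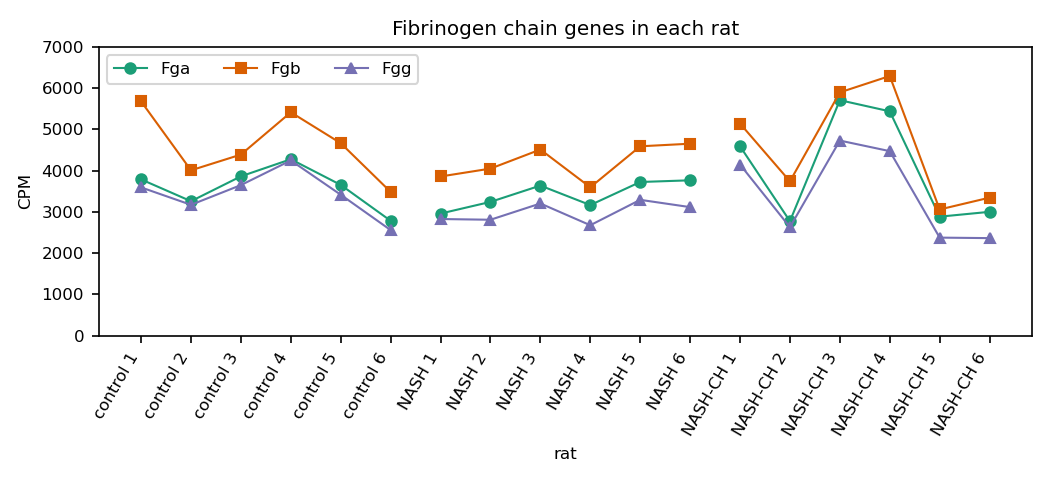
CPM of Fga, Fgb and Fgg in each of the 18 rats, with lines joining the rats of a group. The 3 chains rise and fall together from rat to rat, most widely among the NASH-CH rats, where Fga spans 2777 to 5710.5 CPM.

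The 250 bases before the start site of each chain are shown. Capitals mark the longest match to the letters CTGGGAA or to CTGGGA, which lies within it (TCCCAG is CTGGGA read on the other strand). The part of these letters in the levels of the chains was not tested. Fgg holds CTGGGAA from 169 to 163 and from 61 to 55 bases before the start, Fgb holds it from 152 to 146 bases and the shorter motif on the other strand from 17 to 12 bases, and Fga, for which the first of 2 windows listed is given, holds the shorter one from 130 to 125 bases.
Fga, GRCr8, plus strand, chr2:170671919-170672168: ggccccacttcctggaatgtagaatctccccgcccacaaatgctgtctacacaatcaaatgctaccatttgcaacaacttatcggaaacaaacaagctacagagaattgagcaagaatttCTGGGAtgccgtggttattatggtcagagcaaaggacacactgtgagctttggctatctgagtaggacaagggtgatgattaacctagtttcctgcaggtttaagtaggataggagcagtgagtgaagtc
Fgb, GRCr8, minus strand, chr2:170700876-170701125: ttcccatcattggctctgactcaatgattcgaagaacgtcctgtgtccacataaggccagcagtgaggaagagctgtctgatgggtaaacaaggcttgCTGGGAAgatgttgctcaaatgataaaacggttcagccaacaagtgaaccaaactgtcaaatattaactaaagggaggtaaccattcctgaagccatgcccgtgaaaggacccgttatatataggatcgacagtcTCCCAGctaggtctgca
Fgg, GRCr8, plus strand, chr2:170652833-170653082: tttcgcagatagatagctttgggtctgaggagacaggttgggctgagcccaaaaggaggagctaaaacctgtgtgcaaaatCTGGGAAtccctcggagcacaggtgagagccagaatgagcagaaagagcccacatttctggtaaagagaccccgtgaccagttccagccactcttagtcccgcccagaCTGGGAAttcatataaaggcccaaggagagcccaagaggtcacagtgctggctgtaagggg

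RefSeq windows were found for 27 of the 34 members; F3, F8, Thbd, Serpind1, Serpina10, Plat and Cpb2 had none in the table used. On either strand, CTGGGAA stood in 7 of 27 member windows (25.9%), those of F9, Fgb, Fgg, Kng1, Tfpi2, Serpinc1 and Plg, and in 3198 of all 33469 windows of that length (9.56%). The shorter CTGGGA, which counts every CTGGGAA as well, stood in 17 of 27 member windows (63.0%) and in 25.7% of all windows. Members were counted on the first window listed per gene, and all windows include several for some genes, so these shares differ in unit. Of the members with the longer motif, Kng1 alone was called in any comparison. Whether the RefSeq Kng1 window belongs to the row called is uncertain. The first Kng2l1 window listed also holds CTGGGAA, from 59 to 53 bases before the start. F5, called in both models, had neither motif in its window. The part of these motifs in the calls was not tested.

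The vitamin K-dependent zymogens and cofactors, which need gamma-carboxylation by the liver, gave no call and had narrow intervals. None of the 7 (F2, F7, F9, F10, Proc, Pros1 and Proz) passed limma's test in any comparison, none had an unadjusted p below 0.05, and for all 7 the interval against control lay within a 1.5-fold change in both models. Such intervals were found for 49.2% of all genes tested in NASH and 47.4% in NASH-CH, and for 63.6% and 66.7% of the members. F2, prothrombin, ranged from 1417 to 2024.5 CPM in control rats, from 1414 to 2013 CPM in NASH and from 1208 to 1942 CPM in NASH-CH. Its log2 differences from control were 0.01 (interval -0.27 to 0.29) and -0.03 (interval -0.32 to 0.25), and the 3 groups overlapped nearly throughout. F9 had medians of 583, 661 and 552 CPM and F10 of 269, 239.9 and 241 CPM. F7, the partner of tissue factor, had medians of 41.0, 39.4 and 44.1 CPM. Proz, the cofactor of the protein Z-dependent inhibitor, gave -0.09 in NASH and -0.22 in NASH-CH.

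Factor XIII crosslinks fibrin, and of its subunits F13b gave no call either and F13a1 was not tested. F13b, the carrier subunit made by hepatocytes, had medians of 182, 193 and 166 CPM, which gave 0.06 for NASH and -0.14 for NASH-CH on the log2 scale. F13a1, made mainly by macrophages and megakaryocytes, lay between 0.0386 and 0.757 CPM in all 18 rats.

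Among the anticoagulant genes, Procr was the member that rose. It encodes the endothelial protein C receptor, which presents protein C to the thrombin and thrombomodulin complex. Procr (ENSRNOG00000019330) was low in all libraries, with 28 to 348 counts. Its lowest, median and highest levels were 1.75, 2.16 and 5.35 CPM in control rats, 2.77, 3.82 and 6.42 CPM in NASH, and 4.24, 4.90 and 5.60 CPM in NASH-CH. Control rat 3, at 5.35 CPM, reached into the NASH-CH range, and only 2 of the 6 exceeded it. The log2 fold change was 0.93 in NASH-CH (SE 0.23, 95% interval 0.45 to 1.41, adjusted p = 0.0104 by limma) and 0.61 in NASH (SE 0.25, adjusted p = 0.166). Of the 4 vascular endothelial markers tested, 2 (Vwf and Cd34) were also higher in NASH-CH. Cdh5 (log2 fold change 0.04) and Tek (-0.24) were not called. Summed levels of that list were 47.1 to 60.5 CPM in control, 54.9 to 70.2 CPM in NASH and 56.6 to 84.6 CPM in NASH-CH rats. The 6 sinusoidal markers gave no call against control. The part of these endothelial markers in the rise of Procr was not tested.

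The rest of the protein C system gave no call. Proc, protein C, had medians of 301, 348 and 316 CPM, with log2 differences of 0.17 in NASH (interval -0.06 to 0.40) and -0.02 in NASH-CH (interval -0.25 to 0.22). Pros1, its cofactor protein S, had medians of 188, 211 and 198 CPM and differences of 0.14 and 0.03. Thbd, thrombomodulin, spread widely in every group, from 10.8 to 34.0 CPM in control rats, from 10.6 to 30.6 CPM in NASH and from 12.2 to 25.7 CPM in NASH-CH. Its interval in NASH-CH, -0.74 to 0.47, did not bound the difference within a 1.5-fold change.

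The tissue factor pathway inhibitors gave no call. Tfpi had medians of 9.53, 9.77 and 10.9 CPM, with a difference of 0.19 in NASH-CH (0.12 without rat 5, where it was highest at 14.1 CPM). Tfpi2 lay between 0.607 and 2.62 CPM in all rats, with intervals of -1.02 to 0.53 in NASH and -0.92 to 0.46 in NASH-CH.

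None of the inhibitory serpins was called with all rats, and the value of Serpina5 turned on 1 rat. Serpinc1, antithrombin, the main inhibitor of thrombin and factor Xa, ranged from 1200.2 to 1945 CPM in control, from 1164 to 1881 CPM in NASH and from 998 to 1832 CPM in NASH-CH rats, with differences of -0.02 and -0.07 from control. Serpind1 (heparin cofactor II) gave 0.02 and 0.03, and Serpina10 (the protein Z-dependent inhibitor) gave -0.07 and 0.19, none of them called. Serpina5, the protein C inhibitor, lay between 1.59 and 2.98 CPM in control rats and between 2.18 and 3.57 CPM in NASH. In NASH-CH 5 of 6 rats lay above every control rat, at 3.50 to 6.29 CPM, and rat 5 lay below them all at 1.13 CPM. The difference in NASH-CH was 0.42 with all rats (adjusted p = 0.441 by limma) and 0.78 without rat 5 (adjusted p = 0.0117), so the call turned on the library with the lowest hepatocyte sum.

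No fibrinolytic gene passed limma's test in either model, and 1 of 6 (Plat, in NASH-CH) had an unadjusted p below 0.05 and passed with DESeq2 (adjusted p = 0.0383). Plg, plasminogen, ranged from 2094 to 3340 CPM in control rats (median 2753), from 2454 to 3911 CPM in NASH (median 3128) and from 2129.5 to 3459 CPM in NASH-CH (median 2916). Its log2 differences were 0.19 (interval -0.12 to 0.50) and 0.08 (interval -0.24 to 0.40). Serpinf2, the plasmin inhibitor alpha-2-antiplasmin, had medians of 379.6, 395 and 437 CPM and gave -0.0030 and 0.17. Cpb2, the carboxypeptidase that protects fibrin from plasmin, had medians of 278, 331 and 359 CPM and gave 0.13 and 0.22, with 3 of 6 NASH-CH rats above every control rat.

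The plasminogen activators and their receptor had few counts, and for Plat and Plau 1 NASH-CH library stood far above the others of its group. Plat, tissue-type plasminogen activator, ranged from 3.77 to 7.75 CPM in control rats (median 4.87), from 5.09 to 8.91 CPM in NASH (median 7.22) and from 5.82 to 24.5 CPM in NASH-CH (median 6.92). NASH-CH rat 5 stood at 24.5 CPM, and the next NASH-CH rat at 7.97 CPM. The difference in NASH-CH was 0.69 (interval 0.01 to 1.36, adjusted p = 0.154), and 0.36 without that rat. Plau, urokinase, gave 0.26 in NASH-CH and 0.07 without rat 5. That rat stood at 7.92 CPM, with the next NASH-CH rat at 4.65 CPM and NASH rats reaching 6.67 CPM. Plaur, the urokinase receptor, lay between 0.298 and 1.97 CPM in control rats and between 0.568 and 2.49 CPM in NASH-CH (difference 1.01, interval -0.02 to 2.03, adjusted p = 0.166).

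The cell-surface members that start clotting and sense thrombin were also high in that library. F3, tissue factor, had medians of 1.77, 1.64 and 1.93 CPM, with NASH-CH rats 2 and 5 at 4.37 and 3.91 CPM and the other 4 at 2.04 CPM or less. Its difference in NASH-CH was 0.31 (interval -0.31 to 0.93), and 0.13 without rat 5. F2r, a thrombin receptor, had medians of 4.03, 4.38 and 4.83 CPM and gave 0.32 in NASH-CH (adjusted p = 0.165), and 0.23 without rat 5, its highest value at 6.71 CPM. In the same rat the cholangiocyte sum was 35.2 CPM, the neutrophil sum 4.95 CPM and the T cell sum 2.97 CPM, each the highest of its group; their part in these values was not tested.

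**Figure D4:**
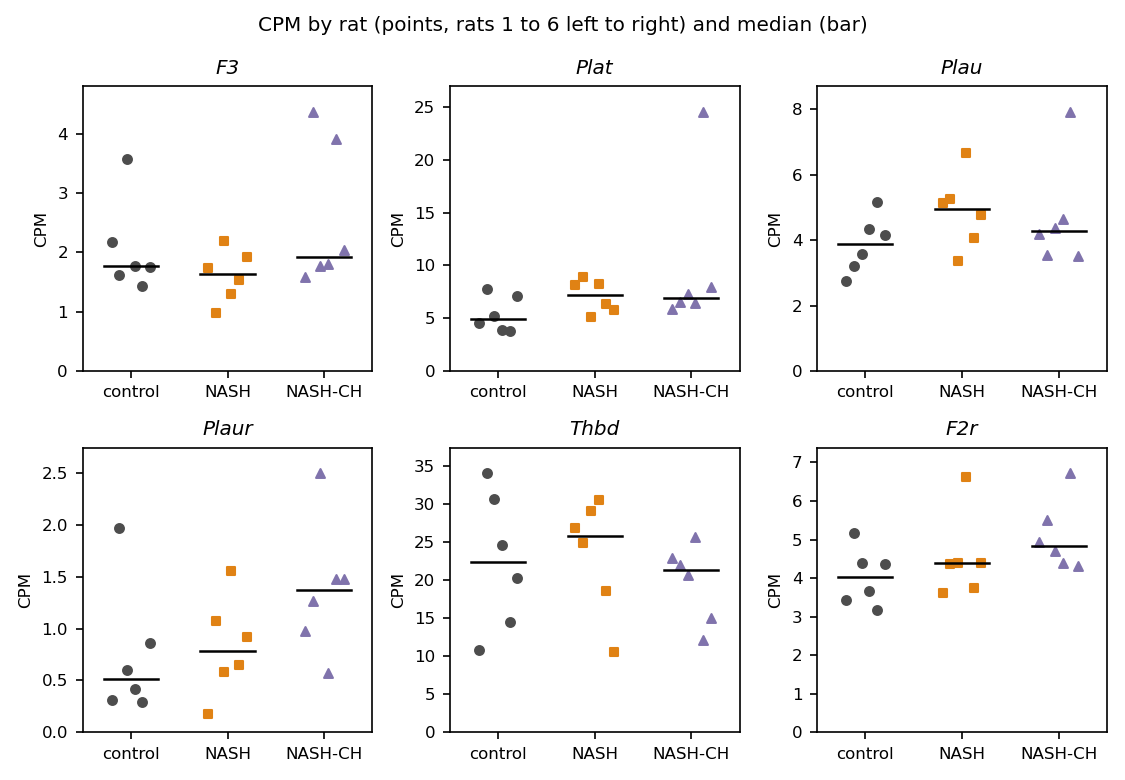
CPM of the cell-surface and locally made members F3, Plat, Plau, Plaur, Thbd and F2r in each rat (points, rats 1 to 6 from left to right) and the group median (bar). NASH-CH rat 5 holds the highest Plat (24.5 CPM), Plau (7.92 CPM) and F2r (6.71 CPM) of all rats.

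Beside the members, 21 other genes of these pathways, regulators and partners, were examined, of which 18 could be tested (not Serpinb2, F2rl1 and F2rl3). In NASH 1 of 18 was higher (A2m) and none was lower by limma, beside 1.58% and 1.54% of all genes tested. In NASH-CH 5 were higher (Serpine2, Serping1, Vwf, A2m and Gas6) and 2 were lower (Vkorc1 and Pdia4), beside 8.38% and 8.60% of all genes. F2rl2, Hrg, Anxa2, S100a10, Plgrkt, Habp2 and Serpina1 were called in no comparison.

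Vwf, von Willebrand factor, which carries factor VIII in plasma and tethers platelets, ranged from 7.98 to 14.3 CPM in control rats (median 10.9), from 9.26 to 22.8 CPM in NASH (median 17.3) and from 15.99 to 39.9 CPM in NASH-CH (median 23.4). It was higher in all 6 NASH-CH rats than in any control rat (1.13, SE 0.23, adjusted p = 0.00245), whereas its plasma partner F8 gave -0.06 in that comparison. Adamts13, the protease that cleaves von Willebrand factor, had medians of 13.7, 16.5 and 14.8 CPM and gave no call. A2m, alpha-2-macroglobulin, a broad protease inhibitor that also binds plasmin, ranged from 5.55 to 30.2 CPM in control rats, from 21.6 to 315 CPM in NASH and from 68.2 to 302 CPM in NASH-CH. Its log2 fold change was 2.25 in NASH (adjusted p = 0.0439 by limma) and 3.09 in NASH-CH (adjusted p = 0.00320), and the call in NASH was lost (adjusted p = 0.0543 to 0.116) without control rat 1, 3, 4 or 5, NASH rat 1, 2, 3 or 5, or NASH-CH rat 1, 2 or 4.

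Serpine2, protease nexin 1, an inhibitor of thrombin and of plasminogen activators, had medians of 11.2, 11.9 and 16.7 CPM. It was higher in NASH-CH than in control (0.55, adjusted p = 0.00359) and than in NASH (0.48, adjusted p = 0.0192), with 5 of 6 NASH-CH rats above every rat of either group. Gas6, a vitamin K-dependent ligand of the TAM receptors, was higher in NASH-CH (0.80, adjusted p = 0.00599), with 6 of 6 rats above every control rat. Serping1, the C1 inhibitor, which also restrains factor XII and kallikrein, was higher by 0.50 on the log2 scale (adjusted p = 0.0366), with 4 of 6 rats above every control rat. That call was lost (adjusted p = 0.0551 to 0.0951) without control rat 1, 3 or 4 or NASH-CH rat 1, 2, 3 or 4.

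Vkorc1, the epoxide reductase that recycles vitamin K, ranged from 50.7 to 100.7 CPM in control rats (median 87.9), from 35.1 to 86.7 CPM in NASH (median 51.1) and from 30.8 to 56.0 CPM in NASH-CH (median 46.3). It was lower in NASH-CH (-0.87, SE 0.21, adjusted p = 0.00871), with 5 of 6 rats below every control rat, and gave -0.61 in NASH (adjusted p = 0.0961). Ggcx, the carboxylase that uses the vitamin, had medians of 57.5, 48.1 and 60.8 CPM and was not called. Pdia4, a protein disulfide isomerase, was lower in NASH-CH (log2 fold change -0.59, adjusted p = 0.0143), and with scaling by library size alone the difference was -0.32 (adjusted p = 0.0921). Lman1 and Mcfd2, which carry factors V and VIII out of the endoplasmic reticulum, gave -0.01 and -0.23 in NASH-CH, neither of them called.

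**Figure D5:**
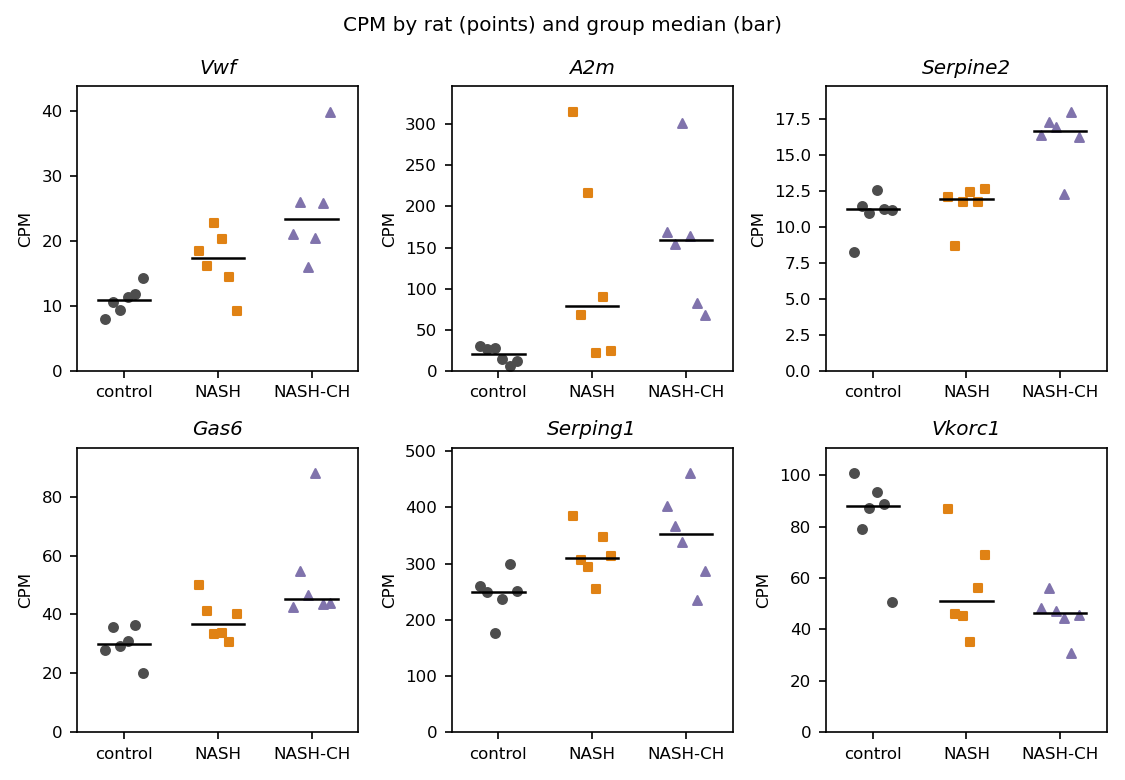
CPM of Vwf, A2m, Serpine2, Gas6, Serping1 and Vkorc1 in each rat (points) and the group median (bar). For Vwf, A2m and Gas6 the 6 NASH-CH values exceed every control value, and for Vkorc1 5 of 6 are below every control value.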

How the data were processed

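Liver RNA of 18 rats was profiled by RNA-Seq. The labels name the RNAqueous-Micro kit for RNA extraction, whereas the methods name a miRNeasy kit, and the labels name a TruSeq stranded mRNA kit for the libraries. The authors trimmed adapters, aligned reads to Rnor_6.0 with STAR and obtained gene counts from RSEM under Ensembl release 95, with tool versions not given in the sources used here. The deposited values were RSEM expected counts per gene, 1 file per rat, not normalized. They were rounded to whole numbers, filtered with edgeR's filterByExpr, which left 12904 genes, scaled by TMM and fitted with limma-voom in 1 model of the 18 rats (R 4.3.3, limma 3.58.1, edgeR 4.0.16). Moderated statistics were adjusted over all genes tested (Benjamini-Hochberg), and an adjusted p below 0.05 made a call. CPM is the count divided by the TMM-scaled library size, per 1e+06 counts. No length correction was made, so levels are not compared between genes.

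Groups came from the labels, and every library was a separate rat. Same-numbered rats of different groups did not deviate together (mean correlation 0.05, 0.07 and 0.01 in the 3 comparisons), so the numbers do not pair them. No 2 libraries of the same group agreed within sampling noise, and libraries of different groups were not compared in this way. Alternatives were DESeq2 1.42.0, the quasi-likelihood test of edgeR, other scalings and filters, each pair of groups fitted alone, sample quality weights, a replicate block, thinned NASH-CH counts, and leaving out each rat. The scripts were tested on simulated data. Promoter windows came from RefSeq (GRCr8) and were matched by symbol. The members and gene lists were chosen with earlier results of these data known. All members are named. Those with an adjusted p below 0.05 are given in full, and of the other pathway genes those called are named. Other named genes, chosen after their values were seen, are given for their role. The list of other pathway genes was reduced by 1 gene, which is not reported here.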

Additional observations from a re-analysis of the deposited data

Results flagged for a closer look

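Among 102 combinations of a member and a group, 12 had 1 rat whose gap to the nearest other rat, as a share of the group's range, was above the 95% critical value of Dixon's test for 6 samples. Chance flags about 1 in 20 groups.

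In NASH-CH rats, Plat (0.885) and Plau (0.742) had rat 5 as their highest value, at 24.5 CPM and 7.92 CPM, and F5 (0.764) had the same rat as its lowest, at 150.1 CPM with the next at 228.5 CPM. F8 (0.822) had NASH-CH rat 6 highest, at 13.9 CPM with the next at 7.51 CPM.

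In NASH rats, rat 4 was highest for F2r (0.739), at 6.63 CPM with the next at 4.40 CPM, for Tfpi2 (0.708), at 2.22 CPM with the next at 1.11 CPM, and for F13a1 (0.699), at 0.503 CPM with the next at 0.240 CPM.

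In control rats, Plaur (0.663) was highest in rat 2, at 1.97 CPM with the next at 0.861 CPM, and F3 (0.654) in rat 3, at 3.58 CPM with the next at 2.18 CPM. Control rat 6 was highest for F8 (0.651), at 10.3 CPM with the next at 7.90 CPM, and for Tfpi2 (0.629), at 2.62 CPM with the next at 1.36 CPM. Serpind1 (0.640) was highest in control rat 5, at 529 CPM with the next at 467 CPM.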

How the results depend on the processing

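F5 in both models, and Kng1 and Procr in NASH-CH, kept direction and call in all 28 alternatives, with adjusted p of at most 0.0391 (F5, NASH), 0.00445 (F5, NASH-CH), 0.0419 (Kng1) and 0.0308 (Procr). No called value changed sign. Among all 33 members, with a rat left out, 10 differences changed sign in NASH, 12 in NASH-CH and 9 between the models, none of them called and all at most 0.30 in size on the log2 scale with all rats. Members higher in NASH numbered 1, against 2 with DESeq2 and with 2 groups fitted alone, 3 with quality weights, 7 with library size only and 1 to 2 with a rat left out (2 without control rat 6, NASH-CH rat 5 or NASH-CH rat 6). In NASH-CH they numbered 3, against 12 with library size only and 3 to 4 with a rat left out (Serpina5 joined without NASH-CH rat 5). Library size alone moved the median of all genes by 0.23 in NASH and 0.27 in NASH-CH, and 32 and 33 of 33 members were then above control, against 21 and 20. Members lower in NASH-CH than in NASH numbered 0, against 1 with DESeq2, with no filter and with quality weights, and 0 to 1 with a rat left out. With the replicate block the member counts were 1, 3 and 0; the calls it ended were Serping1 in NASH-CH (adjusted p = 0.05002) and Serpine2 between the models (0.0510). Other lost calls were A2m in NASH with no filter (0.0685) and with 2 groups alone (0.0614), Serping1 with 2 groups alone (0.0713) and in 7 of 18 fits with a rat left out, and Serpine2 between the models with library size only (0.0808).

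All genes called in NASH numbered 403, against 652 with edgeR, 1228 with DESeq2, 865 with library size only, 268 with no filter, 644 with 2 groups alone, 1509 with quality weights and 128 to 982 with a rat left out. In NASH-CH they numbered 2192, against 5495 with no filter and 1408 with 2 groups alone. Between the models they numbered 542, against 949 with DESeq2, 2649 with no filter, 349 with 2 groups alone and 346 to 591 with a rat left out. F13a1 had too few counts to be tested.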
